A study of Mus musculus with 14 samples.

Results

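Collagen leaves the cell only after a series of enzymes has worked on it, and 10 genes of that series were followed here in spheroids of 4T1, a mouse mammary carcinoma line: the prolyl 4-hydroxylase genes *P4ha1*, *P4ha2* and *P4hb*, the lysyl hydroxylase genes *Plod1*, *Plod2* and *Plod3*, the collagen chaperone gene *Serpinh1*, the procollagen processing enhancer gene *Pcolce*, and the lysyl oxidase genes *Lox* and *Loxl2*. They were taken by symbol from the table of gene counts, where 9 of the 10 had a row among 19525 genes, and *Lox* was not analysed here. All spheroids grew for 5 days in a lung-like medium, and polyadenylated RNA from the cytosolic lysate was sequenced in 14 libraries. ASP shSCR (n = 4) and NoASP shSCR (n = 3) carried a non-targeting hairpin and differed in whether the medium held 700 µM aspartate. ASP shGRIN2D (n = 3) and ASP shDHPS (n = 4) carried a hairpin against *Grin2d*, which encodes the GluN2D subunit of the NMDA receptor, or *Dhps*, deoxyhypusine synthase, which starts the hypusine modification of the translation factor eIF5A, and both were grown with 700 µM aspartate. All 4 groups were puromycin-selected pools of lentivirally transduced cells, so the hairpin sequence and the loss of its target cannot be told apart with 1 group per target. Per the methods, the gradient fractions made from these lysates came from 4 separate spheroid pellets in each condition. The labels do not say whether the pellets were separate cultures, so the p-values measure the spread between these libraries.

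In the endoplasmic reticulum, prolyl 4-hydroxylase makes 4-hydroxyproline, which holds the triple helix together at body temperature. The enzyme is a tetramer of catalytic alpha subunits, encoded by *P4ha1* or *P4ha2*, and beta subunits, encoded by *P4hb*, which is also a free disulfide isomerase. The lysyl hydroxylases encoded by *Plod1* to *Plod3* make hydroxylysine, the anchor for sugars and for stable crosslinks, and *Serpinh1* (HSP47) binds the folded procollagen until it is exported. Outside the cell BMP1-like proteinases cut off the C-terminal propeptide, a step that *Pcolce* accelerates, and lysyl oxidases such as *Loxl2* then start the covalent crosslinks of the fibre. Prolyl and lysyl hydroxylases need oxygen, iron and 2-oxoglutarate, and *P4ha1*, *P4ha2* and *Plod2* are textbook targets of the hypoxia-inducible factor HIF-1.

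Total counts ran from 12731123 to 23231378 per library, and levels are given as CPM, the count relative to the scaled total of the library. The hairpin against *Dhps* lowered its target from 19.4 ± 2.28 to 6.93 ± 1.74 CPM (SD, n = 4 each), a log2 fold change of −1.48 with an adjusted p of 8.31e-06 by edgeR's quasi-likelihood test. In ASP shGRIN2D, *Grin2d* stood at 2.46 ± 0.590 CPM (SD, n = 3) beside 3.60 ± 0.423 CPM (SD, n = 4) in ASP shSCR, which did not pass the test (log2 fold change −0.55, adjusted p = 0.516), so the label of ASP shGRIN2D is not checked by its target. Summed over 7 listed epithelial markers, the level was 4226 to 4292 CPM in ASP shSCR. It was 3225 to 3471 CPM in ASP shGRIN2D and 3373 to 3959 CPM in ASP shDHPS. *Krt8* (1261 to 1787 CPM) and *Krt18* (816 to 1303 CPM over all libraries) weighed most in this sum. Of the 7, 2 passed the test as lower in ASP shGRIN2D. In ASP shDHPS 2 passed as lower and 1 as higher, and against ASP shGRIN2D 1 and 2. Over all genes 1.16%, 4.22% and 2.82% passed in these comparisons. Of 7 fibroblast markers 3 had a row, and *Dcn*, a defining one, had at most 1 count in any library. *Pdgfra* (22.7 to 40.7 CPM) and *Thy1* (143 to 253 CPM) were expressed in all 14. The paper put a Thy1.1 reporter into 4T1 cells for flow cytometry, so *Thy1* cannot be read as fibroblast content here. Of 6 leukocyte markers 4 had a row, and their summed level was 5.82 to 13.0 CPM in ASP shSCR and 12.8 to 16.9 CPM in ASP shDHPS, with *Cd68* at 5.51 to 16.0 CPM and *Ptprc* at or under 0.648 CPM over all libraries. In bulk RNA, fewer cells of a type and less RNA per cell cannot be told apart.

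Corrected for merged exon length, the members spanned a wide range of levels. The mean over 14 libraries was 251 CPM per kilobase for *P4hb*, 106 for *Serpinh1*, 30.6 for *Pcolce*, 22.4 for *Plod3* and 18.8 for *P4ha1*. Below these came *Plod2* at 6.12, *Plod1* at 2.34, *P4ha2* at 0.989 and *Loxl2* at 0.0603 CPM per kilobase. The catalytic subunit with the higher level was thus *P4ha1* in every library, and its ratio to *P4ha2* per kilobase ran from 12.4 to 29.6. The order of *Pcolce*, *Plod3* and *P4ha1* changed between libraries, since their ranges overlapped: 15.9 to 43.6, 19.5 to 25.9 and 13.0 to 42.0 CPM per kilobase.

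**Figure D1:**
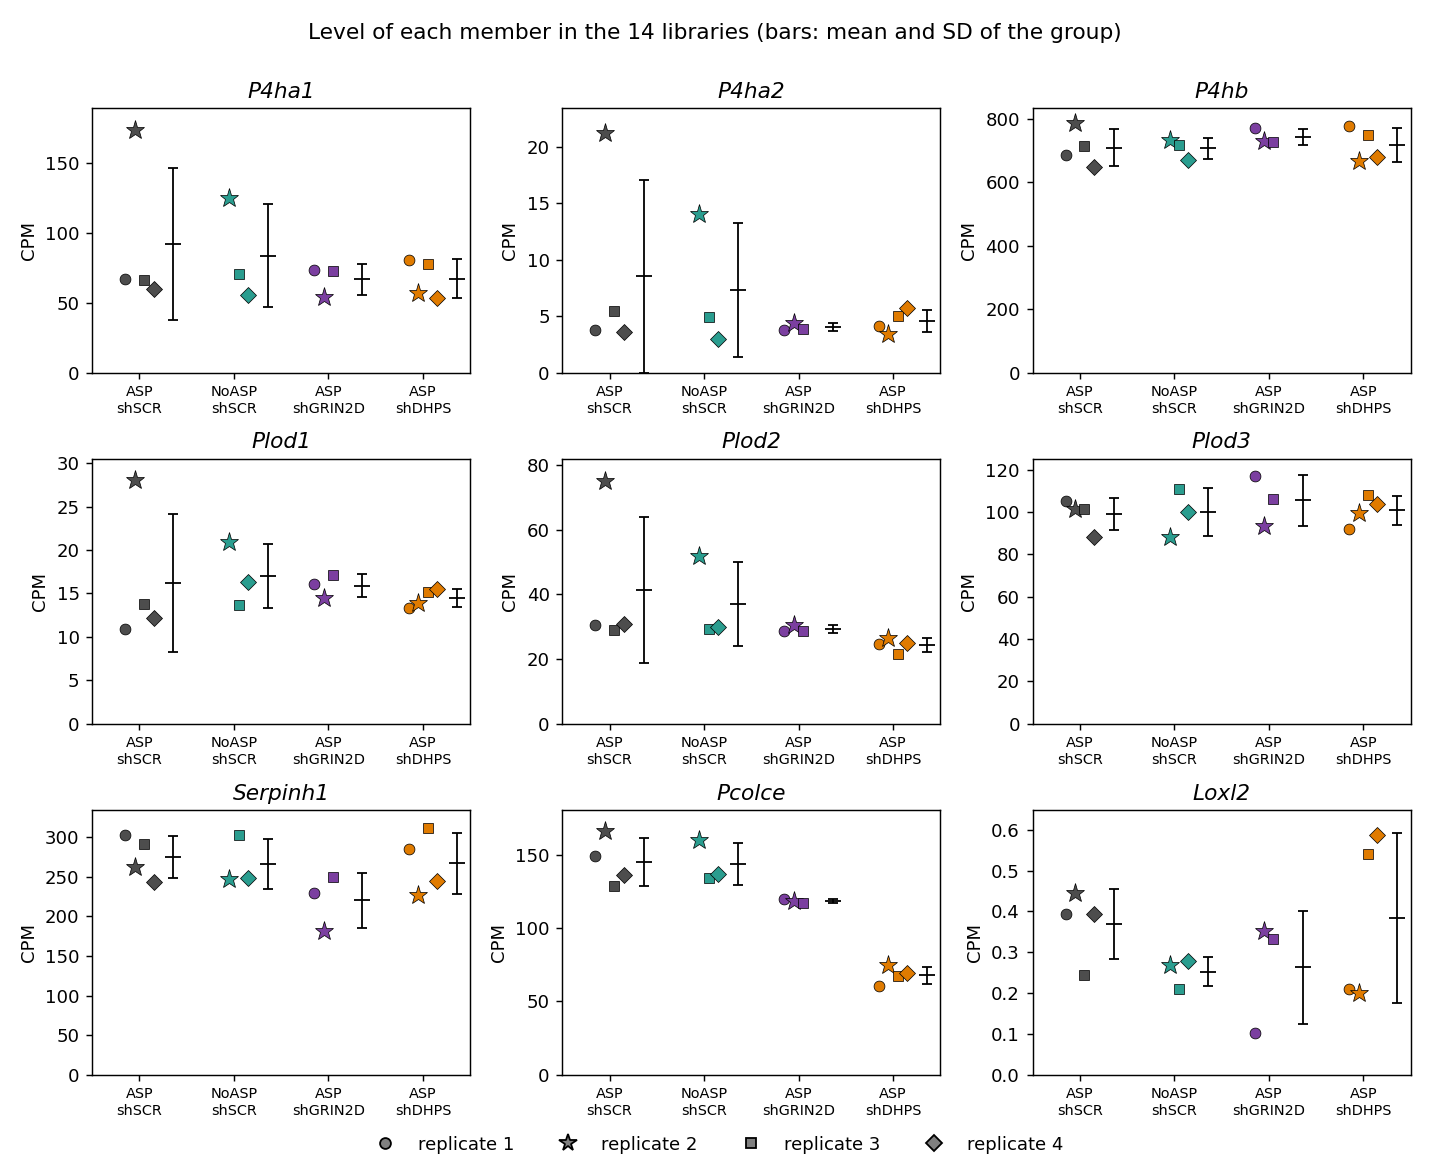
CPM (y axis, from 0) of each of the 9 members with a row, with 1 point per library, the marker shape giving the replicate number, and the bar beside each group its mean and SD (n = 4, 3, 3 and 4 from left to right). The 4 ASP shDHPS libraries of *Pcolce* sit at 60.6 to 74.5 CPM below all other libraries, and replicate 2 of both shSCR groups stands above its group for *P4ha1*, *P4ha2*, *Plod1* and *Plod2*.

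First, the effect of aspartate on the control cells was examined. None of the 9 members passed the test between ASP shSCR and NoASP shSCR, where 0% of 19525 genes did. None had an unadjusted p under 0.05 either, against 2.17% of all genes, and DESeq2 called none. The groups of every member overlapped, while 2.71% of all genes had groups that did not. With the replicate number as a block, which these libraries share, 0 members and 2 of 19525 genes passed, and with only these 2 groups in that fit 0 members and 64 genes. The log2 fold changes ran from −0.07 for *Plod1* to 0.53 for *Loxl2*, and the 95% intervals were narrow for *P4hb* (−0.18 to 0.19), *Pcolce* (−0.19 to 0.22) and *Plod3* (−0.22 to 0.20). They were wide for *P4ha2* (−0.77 to 1.22) and *P4ha1* (−0.47 to 0.73), whose 4 ASP shSCR libraries included 1 that stood apart. These intervals are from the fit without the block, which does not use the pairs. Within the pairs numbered 2, 3 and 4, ASP shSCR minus NoASP shSCR was 0.59, 0.16 and 0.28 in log2 CPM for *P4ha2*. For *P4ha1* it was 0.47, −0.08 and 0.11.

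The catalytic subunits of prolyl 4-hydroxylase showed the library that stood apart, ASP shSCR replicate 2, most clearly. *P4ha1* stood at 66.9, 173, 66.5 and 60.0 CPM in ASP shSCR replicates 1 to 4, and at 125, 70.2 and 55.4 CPM in NoASP shSCR replicates 2 to 4. In ASP shGRIN2D it measured 73.4, 53.8 and 72.8 CPM and in ASP shDHPS 80.6, 57.0, 77.6 and 53.5 CPM. Thus 12 libraries lay between 53.5 and 80.6 CPM in all 4 groups, and both libraries above that range were replicate 2 of a shSCR group. *P4ha2*, at a much lower level, had 3.76, 21.2, 5.49 and 3.61 CPM in ASP shSCR and 14.1, 4.91 and 2.95 CPM in NoASP shSCR. The knockdowns held 3.76, 4.40 and 3.87 CPM (ASP shGRIN2D) and 4.15, 3.46, 5.02 and 5.71 CPM (ASP shDHPS), and both shSCR libraries numbered 2 lay above every other library. The partner subunit *P4hb* showed no such library: its 14 values lay between 649 and 787 CPM, and its group means between 708 and 743 CPM.

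Neither catalytic subunit passed the test in a knockdown. Against ASP shSCR, the log2 fold change of *P4ha2* was −1.09 in ASP shGRIN2D (adjusted p = 0.453) and −0.89 in ASP shDHPS (adjusted p = 0.294), and that of *P4ha1* was −0.46 and −0.45. ASP shSCR replicate 2 set these values. Without it, *P4ha2* gave −0.11 and 0.09 and *P4ha1* gave 0.05 and 0.06, in the same order. *P4hb* gave 0.07 in ASP shGRIN2D and 0.02 in ASP shDHPS, with 95% intervals of −0.12 to 0.25 and −0.15 to 0.19.

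Among the lysyl hydroxylases, *Plod2*, which hydroxylates the telopeptide lysines that feed stable crosslinks, followed the same split. It stood at 30.5, 75.1, 28.9 and 30.7 CPM in ASP shSCR and at 51.9, 29.2 and 30.1 CPM in NoASP shSCR. ASP shGRIN2D held 28.6, 30.6 and 28.7 CPM, and ASP shDHPS held 24.5, 26.6, 21.4 and 24.8 CPM. The 4 ASP shDHPS libraries were the lowest of the 14, and they overlapped no other group. The log2 fold change in ASP shDHPS was −0.76 (SE 0.23), which missed the threshold (adjusted p = 0.0665). The call differed with single control libraries left out: without ASP shSCR replicate 2 the value was −0.30 (adjusted p = 0.364), and without replicate 1 or 3 it passed, at −0.89 (adjusted p = 0.0398) and −0.90 (adjusted p = 0.0299). Between the knockdowns it was −0.27 (adjusted p = 0.651).

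*Plod1* and *Plod3* encode the other lysyl hydroxylases, of which *Plod3* also transfers glucose and galactose to hydroxylysine. *Plod1* had 10.9, 28.0, 13.8 and 12.2 CPM in ASP shSCR, and 20.9, 13.7 and 16.3 CPM in NoASP shSCR. It had 16.1, 14.5 and 17.1 CPM in ASP shGRIN2D and 13.3, 13.9, 15.2 and 15.5 CPM in ASP shDHPS. Replicate 2 was again the highest library of each shSCR group, and the knockdown libraries lay between the extremes of the controls. *Plod3* lay between 88.1 and 117 CPM in all 14 libraries, with group means of 98.9 to 105 CPM, and was the steadiest of the lysyl hydroxylases. Its log2 fold changes were 0.09 in ASP shGRIN2D and 0.03 in ASP shDHPS. *Plod3*, with at most 2407 counts in a library, shares genomic sequence with *Znhit1* on the opposite strand, which had 560 to 1078 counts.

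Next, the 2 shSCR libraries numbered 2 were compared with the other libraries of their own groups, on the log2 CPM scale over the 10224 genes that averaged 5 CPM or more. *P4ha2* was higher by 2.46 in ASP shSCR replicate 2 and by 1.86 in NoASP shSCR replicate 2. By the smaller of both differences it ranked 2 of 10224, after *Bnip3*, a mitophagy receptor on the hypoxia list. *P4ha1* was higher by 1.38 and 1.00 (rank 30), *Plod2* by 1.30 and 0.81 (rank 64) and *Plod1* by 1.19 and 0.48 (rank 275). The other members did not share this: the differences were 0.20 and 0.08 for *P4hb*, 0.29 and 0.24 for *Pcolce*, −0.15 and −0.15 for *Serpinh1* and −0.00 and −0.25 for *Plod3*. Accordingly, the ratio of *P4hb* to the sum of *P4ha1* and *P4ha2* per kilobase was 6.06 to 7.85 in these libraries and 13.3 to 18.5 in the other 12.

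Both libraries stood apart in other respects too. Their mitochondrial share of counts, 4.53% and 4.71%, was the lowest of the 14 libraries, the others holding 4.94% or more. The 2 fibroblast markers that averaged 5 CPM or more were *Pdgfra* and *Thy1*. They were higher than in the other libraries of the group by medians of 0.54 and 0.36. The 15 genes ranked highest by the smaller difference included *Vcam1*, an adhesion molecule, at 1.69 and 1.61, *Cxcl5*, a chemokine, at 1.83 and 1.35, and *Lcn2*, which binds siderophores, at 1.36 and 1.50, all named after their values were seen.

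A list of 13 hypoxia genes was high in the same libraries. Its summed level was 4313 CPM in ASP shSCR replicate 2 against 2170 CPM in the lowest library of that group, and at most 3259 CPM in NoASP shSCR, 2343 CPM in ASP shGRIN2D and 2686 CPM in ASP shDHPS. Of its 12 genes that averaged 5 CPM or more, the median difference of replicate 2 from its group was 1.10 with aspartate and 0.62 without, whereas the median over all 10224 genes was −0.01 and 0.01. *Pdk1*, which slows pyruvate entry into mitochondria, was higher by 1.90 and 1.60, and *Ankrd37*, below the level minimum, by 2.92 and 2.76. *Hif1a*, whose product is regulated mainly through its stability, differed by −0.13 and −0.11. In all, 29 of 10224 genes were higher by more than 1 in both libraries. *Bnip3*, *Pdk1* and *Hif1a* are named after their values were seen, and the part of oxygen supply, or of the other differences given above, was not tested.

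**Figure D2:**
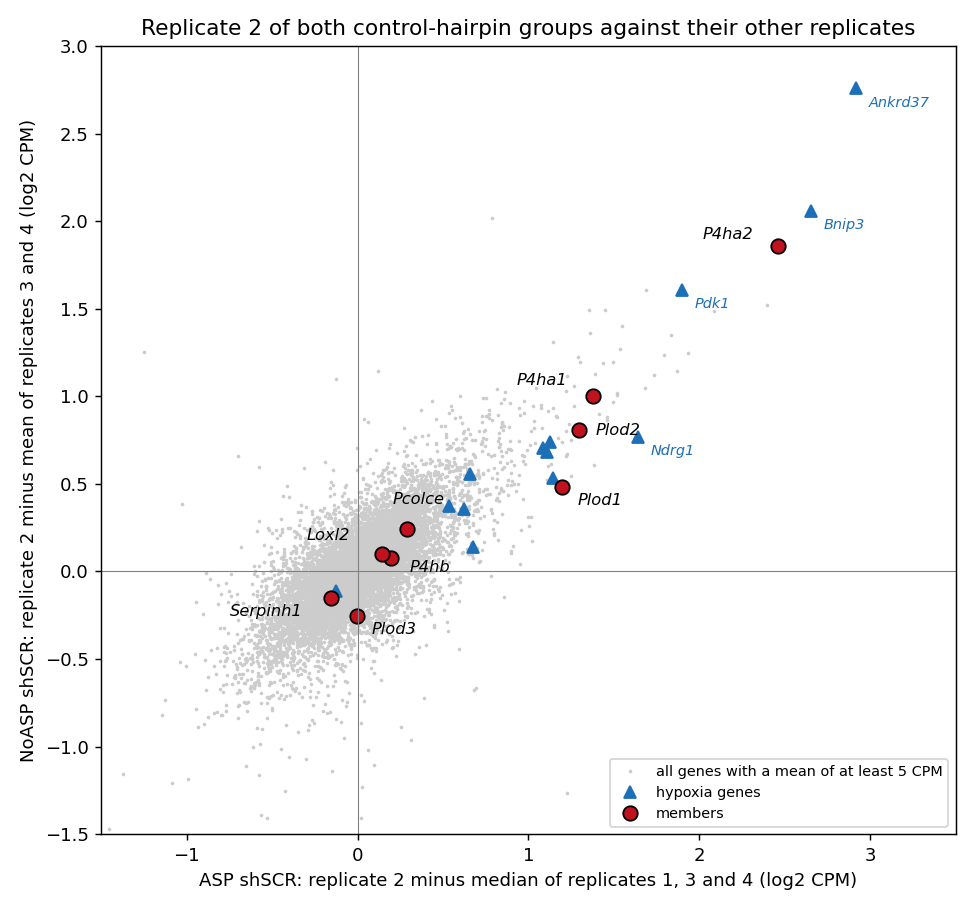
Difference in log2 CPM of replicate 2 from the other libraries of its group, in ASP shSCR (x axis) and NoASP shSCR (y axis), for the members (red circles), the 13 hypoxia genes (blue triangles) and 10224 genes that averaged 5 CPM or more (grey, 19 of them outside the axes). *P4ha2*, *P4ha1*, *Plod2* and *Plod1* lie with the hypoxia genes at the upper right, and *P4hb*, *Plod3*, *Serpinh1*, *Pcolce* and *Loxl2* lie in the main cloud.

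Since hypoxia genes and some hydroxylase genes were high in the same libraries, the 250 bases before the transcription start were searched for the HIF core letters ACGTG or GCGTG on either strand. RefSeq promoters (build GRCm38.p6) were at hand for 7 of the 10 members, and those of *Plod2*, *Lox* and *Loxl2* were not used here. The sequences of *P4ha1* (chr10:59323046-59323295, plus strand), *P4ha2* (chr11:54100674-54100923, plus strand) and *Plod1* (chr4:147936777-147937026, minus strand), which stood high in both libraries, are set beside that of *Plod3* (chr5:136986769-136987018, plus strand), which did not. They run 5′ to 3′ on the strand of the gene, with each match in capitals, read as CACGT or CACGC where it lies on the opposite strand.
P4ha1: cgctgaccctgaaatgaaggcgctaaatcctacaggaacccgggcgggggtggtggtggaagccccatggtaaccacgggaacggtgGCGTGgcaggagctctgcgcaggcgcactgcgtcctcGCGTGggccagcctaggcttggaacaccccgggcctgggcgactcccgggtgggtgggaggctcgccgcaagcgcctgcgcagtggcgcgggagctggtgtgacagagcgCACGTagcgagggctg
P4ha2: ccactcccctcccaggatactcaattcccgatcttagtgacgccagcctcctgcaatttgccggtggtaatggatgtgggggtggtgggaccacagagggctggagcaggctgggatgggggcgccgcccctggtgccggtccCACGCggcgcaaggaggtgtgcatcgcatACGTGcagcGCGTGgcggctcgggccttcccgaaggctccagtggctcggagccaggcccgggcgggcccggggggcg
Plod1: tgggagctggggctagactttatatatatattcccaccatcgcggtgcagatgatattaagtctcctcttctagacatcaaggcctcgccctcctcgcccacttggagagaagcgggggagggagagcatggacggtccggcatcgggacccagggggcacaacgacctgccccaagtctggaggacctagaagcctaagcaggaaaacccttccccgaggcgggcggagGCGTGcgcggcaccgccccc
Plod3: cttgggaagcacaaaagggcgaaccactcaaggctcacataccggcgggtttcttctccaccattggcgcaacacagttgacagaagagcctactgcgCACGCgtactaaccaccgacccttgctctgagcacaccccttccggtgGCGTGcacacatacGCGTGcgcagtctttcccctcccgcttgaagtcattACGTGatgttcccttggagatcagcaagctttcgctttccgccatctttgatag
*P4ha1* and *P4ha2* had 3 matches each, *Plod1* had 1 and *Plod3* had 4. *P4hb* had 2 matches and *Serpinh1* 1. At least 1 match was present in 38.6% of 32851 promoters of this length, at least 2 in 13.4% and 4 or more in 1.42%. The letters were thus present in members that stood high in replicate 2 and in members that did not, and a match is not a binding site.

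*Serpinh1*, the chaperone that keeps procollagen from aggregating, stood at 302, 262, 291 and 244 CPM in ASP shSCR, and at 248, 303 and 249 CPM in NoASP shSCR. It measured 229, 182 and 249 CPM in ASP shGRIN2D and 285, 227, 311 and 244 CPM in ASP shDHPS. Replicates 1 and 3, where present, lay above replicates 2 and 4 in each of the 4 groups, a pattern held by 2.89% of the 10224 genes. It was named after its values were seen, and 1.73% of these genes held its reverse. The mean in ASP shGRIN2D, 220.1 ± 34.8 CPM (SD, n = 3), was the lowest of the groups, but the log2 fold change against ASP shSCR of −0.32 (SE 0.12) did not pass (adjusted p = 0.305). Against ASP shGRIN2D, ASP shDHPS was higher by 0.28 (adjusted p = 0.284). Of 12 listed chaperones and disulfide isomerases of the endoplasmic reticulum, 0 passed in any comparison. Over all genes 0%, 1.16%, 4.22% and 2.82% passed for aspartate, ASP shGRIN2D, ASP shDHPS and the contrast of both knockdowns. At an unadjusted p under 0.05 the count was 0, 0, 1 and 1 of 12, in the same order. The shares of all genes were 2.17%, 10.4%, 19.3% and 14.8%.

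*Pcolce* was the member that changed. It encodes the secreted enhancer that binds the C-propeptide of fibrillar procollagens and speeds its removal by BMP1. ASP shSCR held 149, 167, 129 and 136 CPM, and NoASP shSCR held 160.3, 134 and 137 CPM. ASP shGRIN2D was lower and very even, at 119.9, 119 and 117 CPM. ASP shDHPS was lowest, at 60.6, 74.5, 67.0 and 69.5 CPM, and the lowest of the other 10 libraries held 117 CPM. The mean fell from 145 ± 16.5 CPM in ASP shSCR to 67.9 ± 5.78 CPM in ASP shDHPS (SD, n = 4 each), a log2 fold change of −1.10 (SE 0.094) with a 95% interval of −1.29 to −0.90 and an adjusted p of 7.53e-07 by edgeR's quasi-likelihood test. By its p-value it ranked 2 of 19525 genes. With each library left out in turn the fold change stayed between −1.15 and −1.02, and the adjusted p over all alternatives lay between 2.46e-26 and 1.37e-05.

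Compared with the *Grin2d* hairpin, *Pcolce* was lower in ASP shDHPS by a log2 fold change of −0.80 (SE 0.10, adjusted p = 4.12e-05), and all 4 libraries of the latter lay below all 3 of the former. In ASP shGRIN2D against ASP shSCR the log2 fold change was −0.29 (SE 0.10, 95% interval −0.50 to −0.08) with an adjusted p of 0.227, although the groups did not overlap. It was −0.22 without ASP shSCR replicate 2. The counts of *Pcolce* ran from 1119 to 3410. The gene shares genomic sequence with *Fbxo24* on its own strand (7 to 36 counts) and *Gm36266* on the opposite strand (5 to 29 counts). Reads were from a stranded kit. The fibroblast markers with a row summed to 172 to 294 CPM in ASP shSCR and 183 to 215 CPM in ASP shDHPS. *Thy1*, at 143 to 253 CPM over all libraries, made up most of this sum. The epithelial sum was lower in ASP shDHPS as given above, where 2 of the 7 markers passed as lower and 1 as higher. The summed leukocyte markers were higher in ASP shDHPS, also as given above, and of 3 with more than 3 counts 0 passed the test, with a median log2 fold change of 0.55. The part of these markers in the change of *Pcolce* was not tested.

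Across the 9 members, 0 passed the test in ASP shGRIN2D against ASP shSCR, where 1.16% of all genes did. The count at an unadjusted p under 0.05 was 3 of 9 (*P4ha2*, *Serpinh1* and *Pcolce*), against 10.4% of all genes, and DESeq2 called 0. In ASP shDHPS against ASP shSCR 1 of 9 passed, *Pcolce*, against 4.22% of all genes, and between the knockdowns 1 of 9 passed, *Pcolce* again, against 2.82%. At an unadjusted p under 0.05 it was 2 of 9 in each (*Plod2* or *Serpinh1* added), against 19.3% and 14.8% of all genes. Groups did not overlap for 1 member in ASP shGRIN2D (12% of all genes), 2 in ASP shDHPS (11.1%) and 2 between the knockdowns (15.1%). The median log2 fold change of the members was −0.32 in ASP shGRIN2D and −0.16 in ASP shDHPS, beside 0 and 0.00 over all genes. Without ASP shSCR replicate 2 the medians of the members were −0.034 and 0.058. These 3 comparisons share libraries with each other, so their values are given side by side only.

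**Figure D3:**
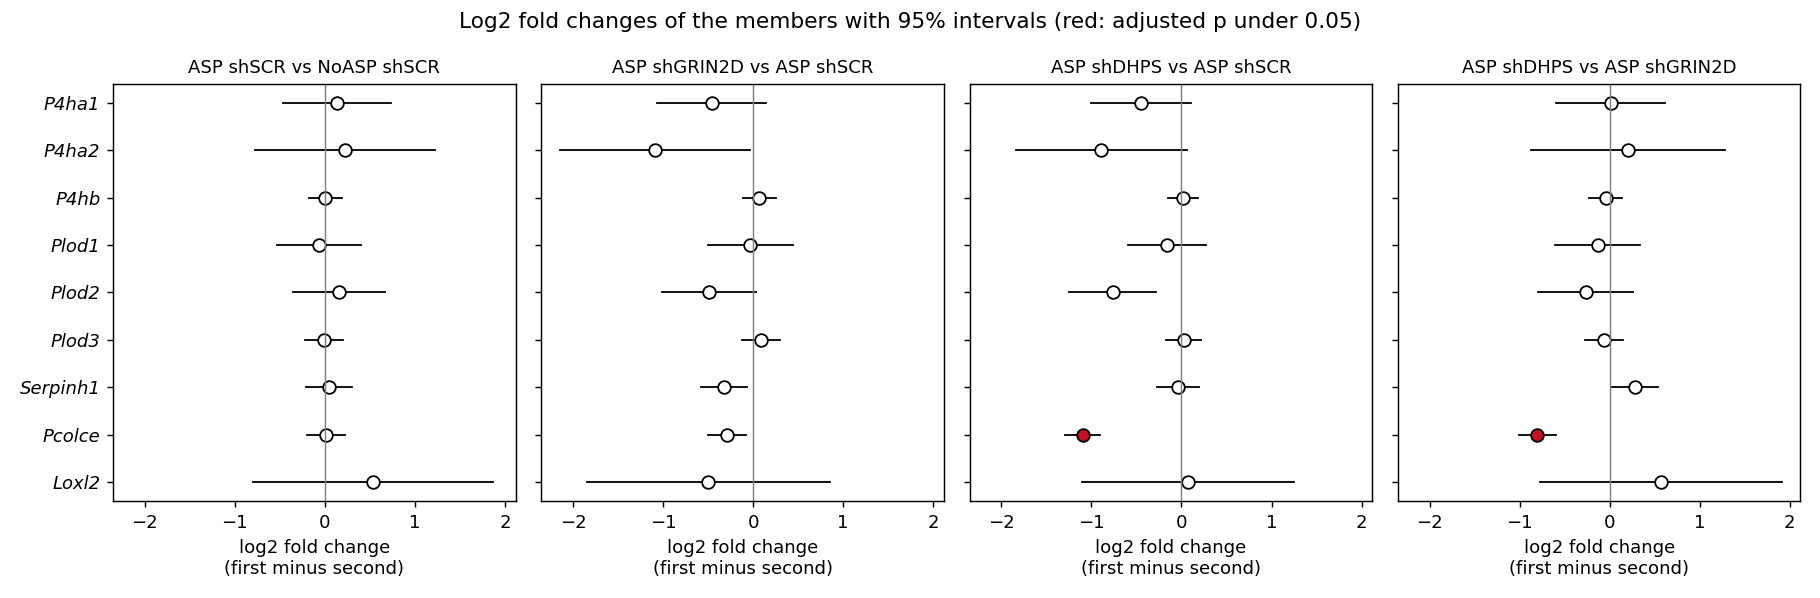
Log2 fold change (points, first group minus second) with its 95% interval (lines) for 9 members in 4 comparisons, where red marks an adjusted p under 0.05. *Pcolce* is red at −1.10 in ASP shDHPS against ASP shSCR and at −0.80 against ASP shGRIN2D, while *P4hb* and *Plod3* have short intervals that include 0 in all 4.

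The promoter of *Pcolce* (RefSeq, build GRCm38.p6, chr5:137611405-137611654, minus strand) is shown because this gene carried the change.
Pcolce: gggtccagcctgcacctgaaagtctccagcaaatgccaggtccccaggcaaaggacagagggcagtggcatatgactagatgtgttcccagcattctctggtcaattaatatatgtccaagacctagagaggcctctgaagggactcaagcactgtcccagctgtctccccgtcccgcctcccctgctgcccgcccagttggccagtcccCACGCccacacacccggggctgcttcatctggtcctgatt
It held 1 match to the letters searched above, in capitals, 40 bases before the start, and no other motif was searched.

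Of the crosslinking enzymes, *Loxl2* was close to the limit of detection, with 2 to 11 counts per library. Its level was 0.394, 0.445, 0.245 and 0.393 CPM in ASP shSCR and 0.268, 0.211 and 0.278 CPM in NoASP shSCR. The knockdowns overlapped these values, at 0.103, 0.352 and 0.333 CPM in ASP shGRIN2D and 0.210, 0.200, 0.540 and 0.587 CPM in ASP shDHPS. At this depth no difference was detectable: the 95% interval in ASP shDHPS against ASP shSCR was −1.11 to 1.25. *Loxl2* shares genomic sequence with *Gm27177* on the opposite strand (0 to 16 counts). Of the listed crosslinking enzymes outside the members, *Loxl1*, named after its values were seen, had 0 to 4 counts per library. *Tgm2*, a transglutaminase that joins glutamine to lysine, fell from 126 ± 21.1 CPM in ASP shSCR to 82.8 ± 10.5 CPM in ASP shDHPS (SD, n = 4 each), a log2 fold change of −0.61 (adjusted p = 0.00436), and was lower there than in ASP shGRIN2D by −0.72 (adjusted p = 0.00171). Both calls held without each library in turn.

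Beyond the members, 34 further genes of collagen modification, propeptide removal, crosslinking and export were listed, of which 30 had a row and 27 had more than 3 counts in a library. None passed for aspartate, 1 rose in ASP shGRIN2D (0.425% of all genes did), and 3 rose and 2 fell in ASP shDHPS (1.65% and 2.57%). The 3 that rose in ASP shDHPS, *P3h1*, *Crtap* and *Ppib*, encode the complex that hydroxylates proline at the 3-position and holds a prolyl isomerase. *P3h1* went from 6.40 ± 1.06 to 9.83 ± 1.29 CPM (SD, n = 4 each; log2 fold change 0.61, adjusted p = 0.0321). *Crtap* rose from 88.3 ± 4.79 to 108 ± 2.45 CPM (0.29, adjusted p = 0.0327) and *Ppib* from 539 ± 51.1 to 701 ± 93.3 CPM (0.38, adjusted p = 0.0339). These calls were close to the threshold, and leaving out single libraries ended them in 6, 6 and 5 of 8 cases, with the highest adjusted p at 0.120, 0.124 and 0.123. In ASP shGRIN2D, *Crtap* rose to 115 ± 3.95 CPM (SD, n = 3, log2 fold change 0.38, adjusted p = 0.0202), a call lost in 4 of 7 cases. Between the knockdowns *Ppib* was higher in ASP shDHPS by 0.44, a call lost in 5 of 7 cases.

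The proteinase that *Pcolce* assists behaved less clearly. *Bmp1* stood at 326 ± 38.5 CPM in ASP shSCR and 257 ± 48.0 CPM in ASP shDHPS (SD, n = 4 each). Its libraries ran from 293 to 381 CPM in ASP shSCR and from 186 to 285 CPM in ASP shDHPS. The log2 fold change of −0.34 missed the threshold (adjusted p = 0.0995), and *Bmp1* was named after its values were seen. *Creb3l2*, a transcription factor that drives the export machinery for procollagen, fell from 34.5 ± 6.79 to 24.5 ± 1.10 CPM in ASP shDHPS (−0.50, adjusted p = 0.0366). Without ASP shSCR replicate 2 its value was −0.35 and did not pass, and the call was lost in 4 of 8 cases. Of the 10 export genes with a row, no other passed in any comparison.

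Their substrates, the collagen chains, had a row for 14 of 17 listed genes. *Col6a1*, a chain of the beaded-filament collagen VI, rose from 46.6 ± 1.67 CPM in ASP shSCR (SD, n = 4) to 82.4 ± 4.64 CPM in ASP shGRIN2D (SD, n = 3), a log2 fold change of 0.82 (adjusted p = 0.00276) that held without each library. *Col7a1*, the anchoring-fibril collagen, fell from 45.2 ± 9.02 to 26.1 ± 7.10 CPM in ASP shDHPS (−0.79, adjusted p = 0.0174). This call was lost without ASP shSCR replicate 2 (adjusted p = 0.0627) and with the robust fit (adjusted p = 0.0915). Without ASP shDHPS replicate 1 the value was −0.61. Between the knockdowns *Col5a1*, *Col6a1* and *Col6a2* were lower in ASP shDHPS, by −1.05, −0.64 and −1.16. The call of *Col5a1* held without each library. That of *Col6a1* was lost without ASP shGRIN2D replicate 2 or 3, and that of *Col6a2* in 6 of 7 cases. Without ASP shDHPS replicate 1 the values were −0.84, −0.47 and −0.92, in the same order. *Col1a1*, the main fibrillar chain and a substrate of *Pcolce*, had 2 to 27 counts in a library, and is named for its role after its values were seen.

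**Figure D4:**
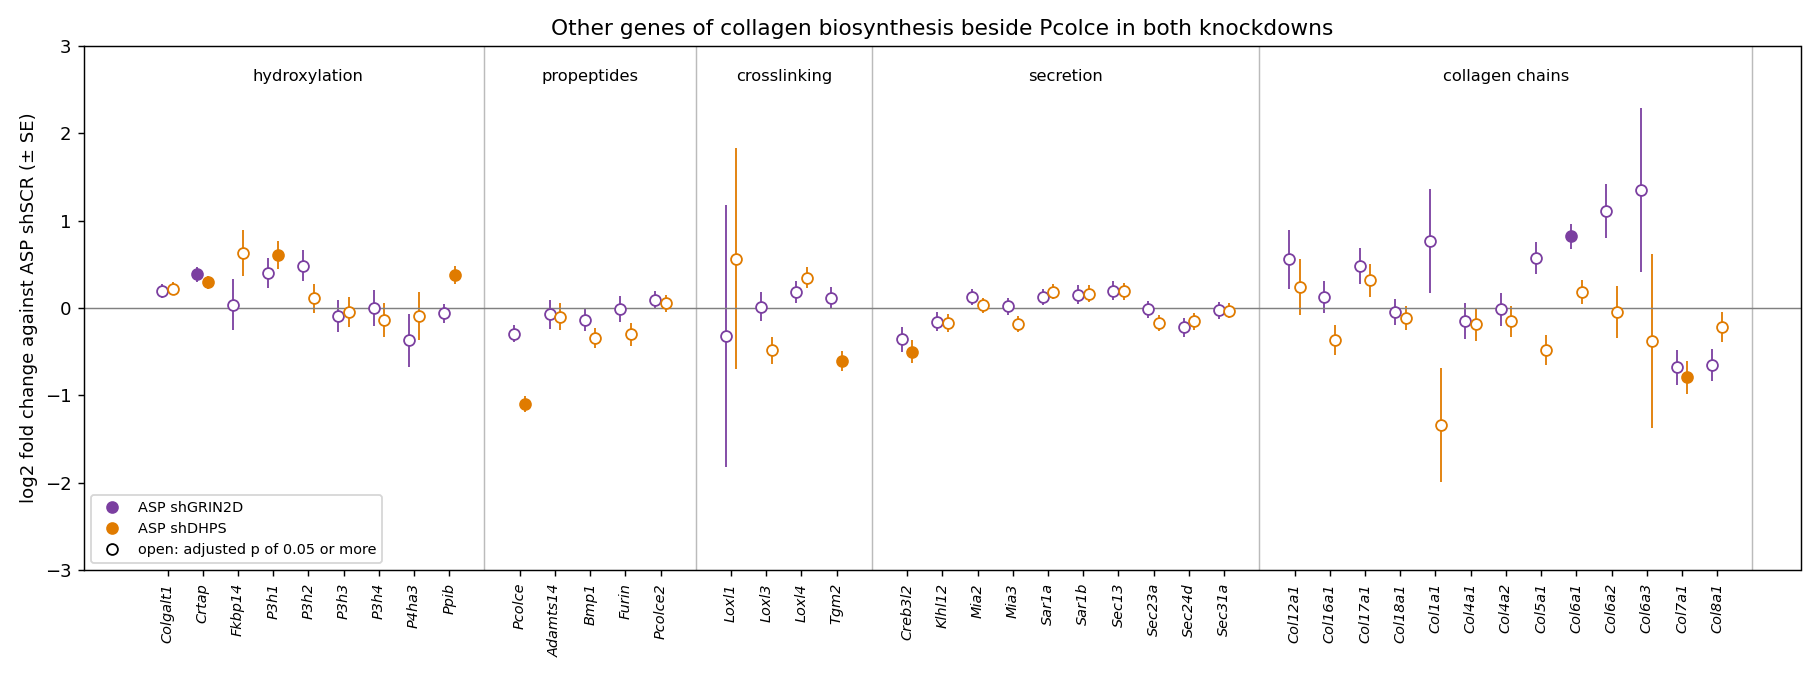
Log2 fold change against ASP shSCR with its SE (y axis) in ASP shGRIN2D (purple) and ASP shDHPS (orange) for *Pcolce*, 27 other genes of collagen modification and export and 13 collagen chains with more than 3 counts in an ASP shSCR library, where filled points have an adjusted p under 0.05. *Pcolce* in ASP shDHPS, at −1.10, is the lowest filled point, and most of the other points lie within 1 of 0.

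Among the listed signalling genes, 1 of 10 TGF-beta genes passed in ASP shGRIN2D, 0 in ASP shDHPS and 1 between the knockdowns. Over all genes 1.16%, 4.22% and 2.82% did. At an unadjusted p under 0.05 the count was 4, 3 and 2 of 10, against 10.4%, 19.3% and 14.8% of all genes. Of 10 TGF-beta genes, *Tgfb3* rose in ASP shGRIN2D (log2 fold change 0.48, adjusted p = 0.0101), a call lost without ASP shGRIN2D replicate 1 or 3. None passed in ASP shDHPS against ASP shSCR. Between the knockdowns *Tgfb3* was lower in ASP shDHPS by −0.59, a call that held without each library. Of the 13 hypoxia genes, 1 passed in ASP shDHPS, against 4.22% of all genes, and it was *Ankrd37* at −2.33 (adjusted p = 0.0439). It stood at −0.89 without ASP shSCR replicate 2, where the call was lost, as it was in 5 of 8 cases.

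Finally, the genes whose log2 CPM followed *Pcolce* most closely over the 14 libraries were *Mgat3*, a glycosyltransferase that adds bisecting N-acetylglucosamine (Pearson r = 0.971), *Eml1*, a microtubule-associated protein (0.965), and *Chd3*, a chromatin remodeller (0.948). These correlations are a description, and the step between ASP shDHPS and the rest enters all of them. Over the 10 libraries outside ASP shDHPS the values were 0.798, 0.746 and 0.774. *Mgat3* stood at 8.50 ± 3.27 CPM in ASP shSCR and 1.55 ± 0.462 CPM in ASP shDHPS (SD, n = 4 each). *Eml1* went from 72.1 ± 3.56 to 52.2 ± 3.10 CPM and *Chd3* from 181 ± 17.7 to 98.7 ± 19.3 CPM.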

How the data were processed

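Counts were from 14 libraries made with a stranded poly(A) kit. Per the study's methods and the submitters' processing notes, the authors trimmed reads with Trim Galore 0.6.6, mapped them to GRCm39 with STAR 2.6.1, estimated gene abundance with Salmon 1.4.0, rounded it to whole counts and deposited the count table after removing genes with little expression; Salmon divides reads among overlapping transcripts by estimation. The deposited normalized table and the comparison tables, which hold the authors' fold changes and p-values, were not used.

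From the deposited counts, edgeR 4.0.16 (R 4.3.3; TMM factors 0.984 to 1.02, quasi-likelihood test, group as the only term, all 14 libraries, 19525 genes) gave log2 fold changes, with Benjamini-Hochberg adjustment over all genes and a threshold of 0.05. CPM used TMM-scaled totals, and log2 CPM a prior count of 2. Alternatives were DESeq2 1.42.0, other scalings, a filter on low counts, a robust fit, fits of only the compared groups, the replicate number as a block, and leaving out each library. Scripts were tested on simulated counts. Same-numbered shSCR libraries with and without aspartate deviated together (r of deviations 0.514, 0.287 and 0.203; 5 of 6 libraries correlated best with their own number), so they were taken as paired; in that comparison the block called 0 members too. Lengths came from GENCODE M21.

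The members, the gene lists and the tests were chosen with earlier results of these data known. All members are named. Of other lists, genes passing in at least 1 comparison are named (at most 4 per list and comparison), except cell type markers, given as counts. For a member that passed, the 3 genes of at least 5 CPM most correlated with it are named.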

Additional observations from a re-analysis of the deposited data

Results flagged for a closer look

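In groups of 4 libraries, 18 sets of values (9 members in each of 2 groups) were checked for a library far from the other 3. Of these, 4 were marked. The rule marks about 1 in 20 independent sets by chance, but the members share their libraries, so that rate is no yardstick here. The share marked over all genes is not given. All 4 came from ASP shSCR replicate 2. *P4ha1* stood there at 172.9 CPM, where the other 3 libraries of the group held 60.0 to 66.9 CPM. *P4ha2* was at 21.22 CPM against 3.61 to 5.49 CPM, *Plod1* at 28.01 CPM against 10.9 to 13.8 CPM, and *Plod2* at 75.12 CPM against 28.9 to 30.7 CPM. NoASP shSCR, with 3 libraries, was not checked in this way, and its replicate 2 was also the highest of its group for these 4 genes, as given above.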

How the results depend on the processing

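In all, 572 member log2 fold changes were recomputed: 511 kept their direction and their side of the threshold, 9 kept their direction and passed only under the alternative, and 52 changed sign, all of them past the threshold in neither fit. The call of *Pcolce* in ASP shDHPS, against ASP shSCR and against ASP shGRIN2D, held under every alternative. The counts of members passing were the same with DESeq2, the other scalings, the filter on low counts, the robust fit, the fits of only the compared groups, and without both shSCR libraries numbered 2, an alternative chosen after seeing the data.

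With the replicate number as a block, 1 member passed in ASP shGRIN2D in the fit of all libraries and in that of only the compared groups (*Serpinh1*, −0.38 in each, edgeR adjusted p = 0.00446 and 0.0325). In ASP shDHPS 2 passed (*Plod2* added, −0.66, adjusted p = 0.000967) and, with only the compared groups, 4 (*P4ha1* and *P4ha2* also, *Plod2* at −0.64, adjusted p = 1.28e-06). Between the knockdowns 2 passed (*Serpinh1* added, 0.33). In these comparisons same-numbered libraries did not deviate together in every pair. The correlations of same-numbered deviations were −0.101, −0.117 and 0.042 for ASP shGRIN2D (replicates 1 to 3). For ASP shDHPS they were 0.258, 0.195, 0.201 and 0.040 (replicates 1 to 4). Between the knockdowns they were 0.0053, 0.033 and 0.231 (replicates 1 to 3). In this order, 1 of 6, 5 of 8 and 2 of 6 libraries correlated best with their own number. The block also changed the sign of *P4hb* (−0.013) for aspartate, *Plod1* (0.023) in ASP shGRIN2D and *Loxl2* (−0.025) in ASP shDHPS, and with only the compared groups that of *Plod1* (0.037) and *Pcolce* (−6.77e-05) for aspartate and *Loxl2* (−0.016) in ASP shDHPS. With library size alone *P4hb* was at −0.0058 for aspartate. Without both libraries numbered 2, the values were −0.026 for *P4hb* (aspartate), 0.046 for *P4ha1* and 0.37 for *Plod1* (ASP shGRIN2D), and 0.064 for *P4ha1*, 0.098 for *P4ha2* and 0.24 for *Plod1* (ASP shDHPS).

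Without each library in turn, 1 to 2 members passed in ASP shDHPS (2 without ASP shSCR replicate 1 or 3, as *Plod2* was added). These fits had no block, so for aspartate, leaving out 1 library of a same-numbered pair kept the other. Sign changes gave, for aspartate, −0.37 to 0.54 for *P4ha1*, −0.76 to 1.12 for *P4ha2*, −0.048 to 0.045 for *P4hb*, −0.47 to 0.11 for *Plod1*, −0.30 to 0.48 for *Plod2*, −0.092 to 0.072 for *Plod3*, −0.0055 to 0.15 for *Serpinh1* and −0.058 to 0.10 for *Pcolce*; in ASP shGRIN2D, −0.61 to 0.047 for *P4ha1* and −0.19 to 0.37 for *Plod1*; in ASP shDHPS, −0.60 to 0.058 for *P4ha1*, −1.15 to 0.094 for *P4ha2*, −0.022 to 0.071 for *P4hb*, −0.32 to 0.24 for *Plod1*, −0.025 to 0.067 for *Plod3*, −0.12 to 0.028 for *Serpinh1* and −0.20 to 0.28 for *Loxl2*; and between the knockdowns, −0.12 to 0.11 for *P4ha1* and −0.15 to 0.017 for *Plod3*. Genes passing numbered 0 for aspartate (2 with the block, 64 with the block and only the compared groups), 226 in ASP shGRIN2D (86 to 208 without 1 library, 442 with DESeq2, 611 with the block), 824 in ASP shDHPS (412 to 894, 1379 and 2150) and 550 between the knockdowns (209 to 577, 933 and 1468). Other than for *Serpinh1* and *Plod2* above and in the fit of only the compared groups, the block changed no member call. Depth limits *Loxl2*, at 2 to 11 counts, and the filter on low counts dropped it, keeping 8 members; intervals for the other members are set by the spread between libraries.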
